A study of Mus musculus with 40 samples.

Results

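Transforming growth factor β2 (TGF-β2) was compared with interleukin 1β given together with interleukin 6 (IL-1β and IL-6) in ES-astrocytes, astrocyte-like cells grown from mouse embryonic stem cells. The comparison holds every ES-astrocyte library whose title names TGF-β2 (4 libraries) or IL-1β and IL-6 (4 libraries), thus 8 of the 40 libraries of the series, and all genes of the count table. Each group has the biological replicates A to D, and a replicate was a separate vial of cells from a given passage. In the deposited sample sheet both groups stand at plate index 2 of every replicate letter, so that plate and stimulus do not run together here, whereas the control ES-astrocytes stand at plate index 1.

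All cells came from a single non-commercial embryonic stem cell line, made from B6.Cg-Tg(Hlxb9-GFP)1Tmj/J mice. These carry enhanced green fluorescent protein under the Hb9 promoter, which is active in motor neurons and thus marks the ES-motor neurons, not the ES-astrocytes. ES-astrocytes of all groups were matured with forskolin, which raises cyclic AMP, and were then kept with the stimulus for 24 h (the control ES-astrocytes without one). In every group they then carried a layer of ES-motor neurons, until a flow sorter parted ES-astrocytes from ES-motor neurons, in pools of about 200 cells each. cDNA of the cytosol's polyadenylated RNA was made in full length with a template switch, cut with the transposase Tn5 and sequenced in read pairs. The stimuli stand for inflammatory proteins that appear after brain injury, and the comparison asks how far ES-astrocytes under TGF-β2 differ from those under IL-1β and IL-6.

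IL-1β binds the receptor Il1r1 with its partner Il1rap and acts through Myd88, Irak kinases and Traf6 on the transcription factor NF-κB and on the JNK kinases, which induce chemokines and acute-phase proteins. IL-6 binds Il6ra, pairs with Il6st (gp130) and acts through JAK kinases on Stat3, which induces acute-phase genes and its own inhibitor Socs3. TGF-β2 binds Tgfbr2 and Tgfbr1, aided by the co-receptor Tgfbr3, and acts through Smad2, Smad3 and Smad4 on genes of the extracellular matrix and the cytoskeleton and on inhibitors such as Smad7 and Skil. In astrocytes the interleukins are known as inducers of reactive states and TGF-β as an inducer of matrix and scar genes.

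Total counts were 4166740, 10099902, 2787407 and 4661025 in replicates A to D with TGF-β2, and 5309235, 4679458, 16054290 and 2141079 with IL-1β and IL-6. Levels are given as CPM, the counts of a gene relative to the library's total, scaled by TMM over the 20 ES-astrocyte libraries, in the order of replicates A to D. A count of 0 leaves room for 3 counts, which are 0.231 to 1.46 CPM in these libraries. Genes with at least 1 count numbered 15940, 14910, 12449 and 11874 with TGF-β2 and 11412, 14141, 12761 and 10970 with IL-1β and IL-6, overlapping ranges (means 13793 ± 1945 and 12321 ± 1433, SD, n = 4, exact two-sided permutation p = 0.257). Mitochondrial genes took 3.44 ± 0.400% of counts with TGF-β2 and 3.72 ± 0.210% with IL-1β and IL-6 (SD, n = 4, exact permutation p = 0.314). Genes of ribosomal proteins took 2.52 ± 0.514% and 2.23 ± 0.625% (SD, n = 4, exact permutation p = 0.543). The 100 most abundant genes of a library held 31.4 ± 4.83% and 36.2 ± 4.32% of its counts (SD, n = 4, exact permutation p = 0.229). The smallest p that 4 against 4 can give is 0.0286.

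The libraries varied widely within each group. Across genes, the log2 CPM of a pair of TGF-β2 libraries correlated with Pearson's r of 0.598 to 0.759 (median 0.640 over 6 pairs), a pair of IL-1β and IL-6 libraries with 0.591 to 0.650 (median 0.608 over 6 pairs), and a pair across the groups with 0.592 to 0.776 (median 0.612 over 16 pairs). Genes are not independent replicates, so that these values describe the libraries. The first principal component of the 500 most variable genes held 29.5% of their variance, with TGF-β2 at 48.4, 41.1, 15.1 and -32.0 and IL-1β and IL-6 at -58.6, 43.2, -12.0 and -45.3. The groups overlapped on it, with IL-1β and IL-6 replicate B among the TGF-β2 libraries and TGF-β2 replicate D among the others.

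The libraries held part of the genes that mark astrocytes. Of the 23 astrocyte genes listed, 18 had counts in the 8 libraries, and their summed level was 2003, 2310.3, 2309 and 2043 CPM with TGF-β2 and 3169, 1969.6, 3723 and 3099 CPM with IL-1β and IL-6. *Fabp7*, a fatty acid binding protein of radial glia, was the most abundant per kilobase of exon. *Gfap*, *Aqp4*, *Aldh1l1* and *S100b*, genes of mature astrocytes, were at 0 in all 8 libraries. Neuron genes were present in both groups, 12 of 12, with sums of 3222, 3820.3, 4625 and 5598 CPM with TGF-β2 and 6287, 4139.9, 6098 and 4656 CPM with IL-1β and IL-6, led per kilobase by *Gap43* of growing axons. Motor neuron genes were low, 9 of 10 detected, with sums of 42.2, 34.8, 29.9 and 74.8 CPM and 66.4, 51.4, 39.0 and 96.8 CPM, led by the transcription factor *Isl1*, with *Chat* of acetylcholine synthesis at 0. In pools of cells, fewer cells of a type and less RNA per cell cannot be told apart. The part of these markers in the results was not tested.

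Genes of the oligodendrocyte lineage, microglia, endothelium and pluripotent cells were at 0 in some libraries and counted in others. Of 7 genes of the oligodendrocyte lineage 4 were detected, at sums of 7.31, 0.586, 0 and 0 CPM with TGF-β2 and 0, 0, 3.38 and 0.486 CPM with IL-1β and IL-6, with *Pdgfra*, *Sox10* and *Mag* at 0 and the myelin gene *Mog* the most abundant per kilobase. Microglial genes, 4 of 7, summed to 9.19, 0.683, 0 and 9.5 CPM and 0, 0.405, 0 and 0.486 CPM, with *Aif1*, *P2ry12* and *Ptprc* at 0 and *Csf1r* leading. Endothelial genes, 2 of 5, summed to 0.418, 0, 0 and 0 CPM and 0, 0, 0 and 16.5 CPM, with *Pecam1*, *Cdh5* and *Tek* at 0 and *Kdr* leading. Of 5 genes of pluripotent cells, *Nanog* alone had counts, at 0, 0.195, 0 and 0.232 CPM and 0.443, 0, 0.0769 and 0.973 CPM, with *Pou5f1* at 0, and each value of *Nanog* was below the level of 3 counts in its library. No gene of these 4 lists passed the filter on low counts.

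Between TGF-β2 and IL-1β and IL-6, edgeR called no gene and DESeq2 called 62, 50 higher and 12 lower with TGF-β2. Among the genes of smallest p in edgeR whose groups did not overlap, those with higher values under TGF-β2 included the Golgi gene *Yipf1*, the transferrin receptor *Tfrc*, tissue factor *F3* and the microRNA host *Mir9-3hg*, most of them near 0 with IL-1β and IL-6. Those with lower values included *Gata3*, *Scn2a*, *Snap25*, *Ptn* and *Rgs2*. The matrix genes *Dcn* and *Col12a1* were apart with higher values under TGF-β2, while the acute-phase gene *Saa3*, the chemokine gene *Cxcl5* and the complement gene *C3* were counted in some IL-1β and IL-6 libraries and in no TGF-β2 library. The chemokine genes *Ccl2* and *Cx3cl1* were counted in 1 TGF-β2 library and in no IL-1β and IL-6 library.

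A gene was called where edgeR's quasi-likelihood test gave a Benjamini-Hochberg adjusted p no higher than 0.05 and the log2 fold change was above 1 or below -1. It called 0 of 10384 genes (0%), and the smallest adjusted p was 1.00. At an unadjusted p under 0.05 it counted 233 genes (2.24%). DESeq2 called 62 of 20248 genes (0.306%), 50 higher and 12 lower with TGF-β2. The alternative limma-voom, used throughout with sample quality weights, called 0, with 706 genes at an unadjusted p under 0.05. Of the genes tested by edgeR, 172 (1.66%) had all 4 TGF-β2 libraries above all 4 IL-1β and IL-6 libraries, and 95 (0.915%) had all 4 below. The log2 fold changes of TGF-β2 over IL-1β and IL-6 had a median of 0.04, with 5444 genes positive and 4940 negative, and the same median when the 11 genes with a group at 0 were set to their bound.

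The genes that follow are the 8 of smallest p in each direction among those whose groups did not overlap. They are given as values that did not pass edgeR's test, and their separation was a condition of the choice. Bounds, ratios and their intervals come from reads pooled over a group and do not cover the spread between libraries. Of the 8 higher with TGF-β2, 7 had at most 6 counts over the 4 IL-1β and IL-6 libraries, and all 8 were among DESeq2's calls. The counting setting for strand is not given in the sources used here, so that reads of a gene and of a gene that overlaps it cannot be told apart. Of genes named later, such overlaps hold among others for *Cp* (with *Hps3*), *Tagln* (*Pcsk7*), *Fn1* (*Apol7d*), *Ccdc39* (*Ttc14*), *Hoxb5* (*Hoxb5os*) and *Hoxa5* (*Hoxa3*).

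*Yipf1*, a membrane protein of the Golgi (GRCm38, chromosome 4, 107314363 to 107359823, overlapped by 2 genes on the opposite strand), stood at 62.9, 49.7, 17.7 and 19.9 CPM with TGF-β2 and at 0, 1.01, 0.0769 and 0 CPM with IL-1β and IL-6. Its counts were 945 against 6, of which 5 were in IL-1β and IL-6 replicate B, and its log2 fold change was 6.95 (SE 1.45). In the control libraries it reached 99.7, 18.6, 9.37 and 0.166 CPM, a range wider than that of the TGF-β2 group. The host transcript of the microRNA miR-9-3, *Mir9-3hg* (chromosome 7, 79500026 to 79534403, overlapped on its strand by 4 annotated genes), was at 24.2, 23.9, 9.74 and 11.8 CPM with TGF-β2 and 0, 0, 0.154 and 0 CPM with IL-1β and IL-6. With 439 counts against 2 the ratio was 243 (95% interval 66.9 to 2015). The control libraries held 29.4, 13.5, 24.9 and 5.64 CPM of it, all above the IL-1β and IL-6 libraries.

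*Tppp3* (chromosome 8, 105467493 to 105471526), which binds and bundles microtubules, was at 30.3, 24.0, 13 and 25.3 CPM with TGF-β2 and 0.221, 0, 0 and 0.486 CPM with IL-1β and IL-6. The counts of 536 against 2 gave a ratio of 297 (95% interval 81.8 to 2459). The sorting receptor gene *Sorl1* (chromosome 9, 41964720 to 42124297, with *Gm16214* on the opposite strand) gave 20.0, 11.5, 13 and 15.8 CPM and 0.221, 0, 0 and 0 CPM. Its ratio was 352 (95% interval 62.8 to 13964), from 318 counts against 1. The control libraries were split for *Sorl1*, at 0, 20.4, 18.4 and 0.332 CPM, so that replicates A and D of the control looked like the IL-1β and IL-6 group and replicates B and C like the TGF-β2 group.

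The zinc finger gene *Zfp865* (chromosome 7, 5020376 to 5036768, which overlaps *Ccdc106* and 2 more genes on its strand and *Zfp784* on the other) had 7.93, 14.5, 6.13 and 19.2 CPM with TGF-β2 and 0, 0, 0.0769 and 0 CPM with IL-1β and IL-6, a ratio of 318 (95% interval 56.6 to 12607) from 287 counts against 1. *Pcdhb21*, an adhesion gene of the clustered protocadherins, whose near-identical neighbours can share reads, had 12.7, 6.15, 29.2 and 17.8 CPM with TGF-β2 and no count in the other group, at least 104-fold higher. *F3* (chromosome 3, 121723537 to 121735048), tissue factor, which starts blood clotting, had 16.9, 13.1, 9.02 and 6.72 CPM with TGF-β2 and no count with IL-1β and IL-6, at least 99.4-fold higher. Its control libraries stood at 0, 20.4, 23.1 and 0 CPM, again at 0 in replicates A and D. *Tfrc*, the transferrin receptor for iron uptake (chromosome 16, 32608920 to 32632794), was the only one of the 8 with over 6 counts in the IL-1β and IL-6 group. It stood at 95.6, 129, 219 and 70.7 CPM with TGF-β2 and 31.2, 19, 31.8 and 39.4 CPM with IL-1β and IL-6, a log2 fold change of 2.09 (SE 0.46), and the control libraries at 10.8, 85.0, 68.8 and 149.9 CPM reached from below the lowest IL-1β and IL-6 library to within the TGF-β2 range.

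Bounds and ratios against so few counts rest on pooled counts, and most of the depth behind the IL-1β and IL-6 group was in replicate C. Without it *Mir9-3hg* was at least 76.1-fold higher with TGF-β2, *Zfp865* at least 49.8-fold, *Pcdhb21* at least 48.9-fold and *F3* at least 46.7-fold. The ratio of *Tppp3* was then 139 (95% interval 38.4 to 1154) and that of *Sorl1* 165 (95% interval 29.5 to 6555). Without IL-1β and IL-6 replicate A, *Sorl1* was at least 95.8-fold higher and the ratio of *Tppp3* 485 (95% interval 86.6 to 19178), and without replicate D the ratio of *Tppp3* was 544 (95% interval 97.3 to 21536). These genes were chosen for groups that did not overlap, so that leaving out a library could not change which group was higher.

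Present in every library of one group and near absent from the other was a pattern of 18 genes with TGF-β2, of 21603 with counts in the 8 libraries. They had at least 10 counts in each of the 4 TGF-β2 libraries and at most 3 counts over the 4 IL-1β and IL-6 libraries. The reverse pattern was found for 0 genes. It asks for 10 counts in IL-1β and IL-6 replicate D, which had the lowest total, 2141079 counts, and the fewest genes, 10970. The part of depth in this was not tested. Of the 18, 15 were tested by edgeR and none was called. The other ES-astrocyte libraries did not show them evenly, since 17 of the 18 had at most 3 counts in at least 1 control library, 3 had at most 3 counts in all 4 control libraries, and the median gene had at most 3 counts in 6 of the 12 libraries of the other treatments and the control. *Rhog*, a small GTPase of membrane ruffling, was among these 3 and was chosen after its values were seen. It had 8.98, 19.3, 4.33 and 8.80 CPM with TGF-β2 and no count with IL-1β and IL-6 or in the control, at least 108-fold higher with TGF-β2 than with IL-1β and IL-6, a bound of at least 50.5-fold without IL-1β and IL-6 replicate C and of at least 64-fold without TGF-β2 replicate B.

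The 8 genes lower with TGF-β2 were well counted in both groups. *Gata3*, a zinc finger transcription factor of ventral interneurons (chromosome 2, 9857078 to 9890034, overlapped by 1 gene on its strand and 2 on the other), stood at 74.1, 41.2, 41.1 and 51.7 CPM with TGF-β2 and 225, 136, 164 and 127 CPM with IL-1β and IL-6, a log2 fold change of -1.64 (SE 0.36). *Rgs2*, which dampens G protein signals (chromosome 1, 143999338 to 144004161), stood at 48.2, 42.6, 21.3 and 59.8 CPM and 208, 71.5, 199 and 159 CPM, a log2 fold change of -1.88 (SE 0.45). *Scn2a*, a sodium channel of neurons (chromosome 2, 65620771 to 65767447), stood at 10, 23, 7.94 and 13.9 CPM and 107, 42.9, 37.0 and 67.1 CPM, a log2 fold change of -2.20 (SE 0.61). DESeq2 called these 3 lower with TGF-β2 and did not call the 5 that follow.

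*Snap25*, of the machinery that fuses synaptic vesicles (chromosome 2, 136713453 to 136782428, with *Gm14053* on the opposite strand), was at 130.1, 125, 107 and 107 CPM with TGF-β2 and 322, 164, 285 and 197 CPM with IL-1β and IL-6 (log2 fold change -1.04, SE 0.30). *Ptn*, the growth factor pleiotrophin of radial glia (chromosome 6, 36714929 to 36810220), was at 39.7, 24.8, 40.4 and 33.8 CPM and 121, 84.7, 395 and 48.6 CPM (log2 fold change -2.22, SE 0.60). The TGF-β2 libraries lay close together for both genes, and the IL-1β and IL-6 libraries spread, for *Ptn* above all through replicate C, without which its log2 fold change was -1.29. *Sdc4*, a syndecan of cell adhesion (chromosome 2, 164424247 to 164443887), was at 67.9, 104, 91.6 and 26.4 CPM and 179.6, 212, 516 and 117 CPM (log2 fold change -1.81, SE 0.53), and without the same replicate C its log2 fold change was -1.23. *Ebf2*, a transcription factor of young neurons (chromosome 14, 67233292 to 67430918, with 5 genes on the opposite strand), was at 76.4, 110.1, 104 and 111 CPM and 325, 138, 353 and 131 CPM (log2 fold change -1.23, SE 0.38). *Gpr85*, an orphan receptor of neurons (chromosome 6, 13834458 to 13839942), was at 74.8, 96.5, 54.8 and 116 CPM and 177, 128, 277 and 159.6 CPM (log2 fold change -1.11, SE 0.36). Replicates A and C of IL-1β and IL-6 were the highest for *Snap25*, *Ptn*, *Ebf2* and *Gpr85*.

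**Figure D1:**
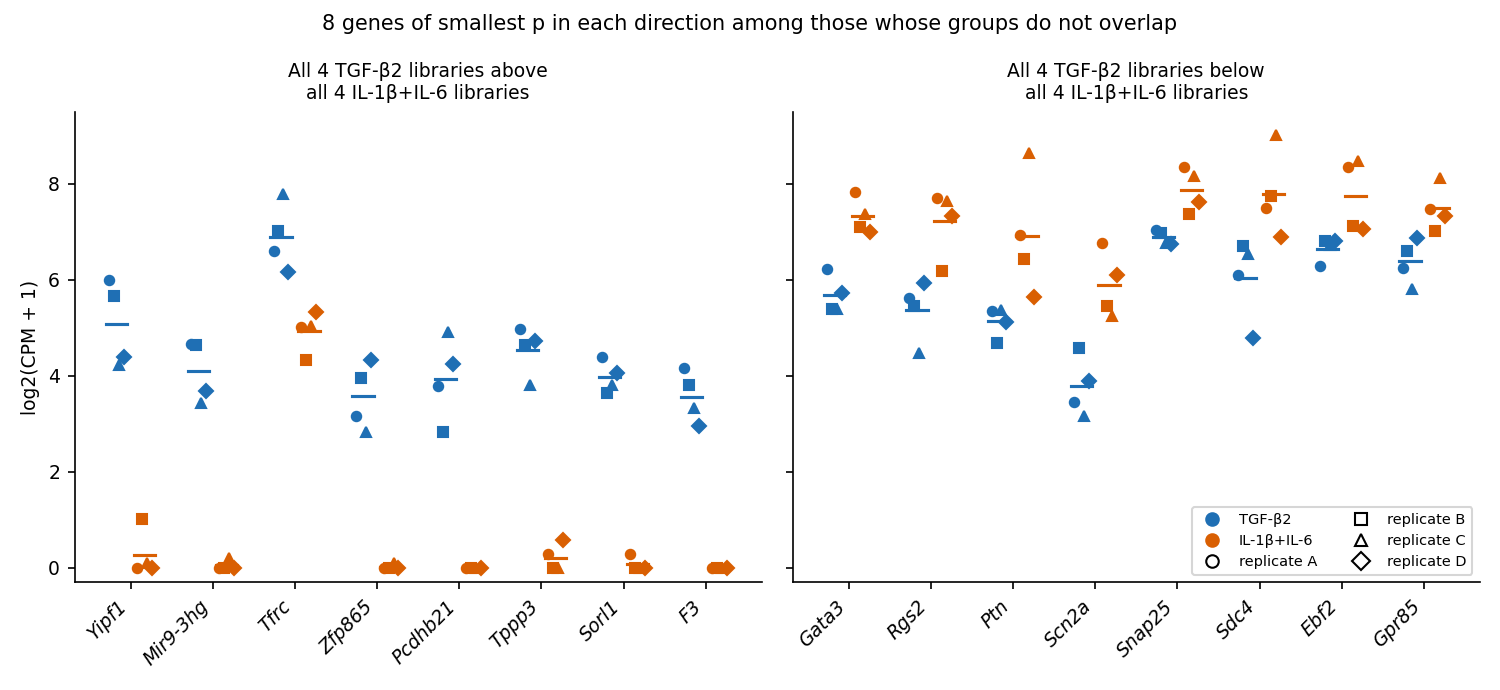
Level of each gene in each library, as log2(CPM + 1), for the 8 genes of smallest p in each direction whose groups do not overlap; colours mark the stimulus, symbols the replicate and short lines the mean of 4 libraries. On the left, 7 of 8 genes have IL-1β and IL-6 libraries at or near 0, and on the right all 8 genes were counted in both groups.

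Among DESeq2's 50 genes higher with TGF-β2, 22 had no count with IL-1β and IL-6 and 15 had 1 to 3 counts, and 48 had groups that did not overlap. Of its 12 genes lower with TGF-β2, 3 had no count with TGF-β2, 2 had 1 to 3 counts, and 9 had groups that did not overlap. Such separation held for 1.66% and 0.915% of the genes tested by edgeR, and its share among DESeq2's genes was not taken. It is read from the same counts as the calls and adds no support to them. Of the 62, edgeR tested 36 and called none. The genes that follow are from the 20 that had over 3 counts in the lower group, and they were chosen after their values were seen.

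*Hoxb5*, which sets position along the hindbrain and spinal cord, had 553, 379, 398 and 481 CPM with TGF-β2, 213, 230.5, 203 and 86.1 CPM with IL-1β and IL-6 and 160.2, 114, 109.5 and 225 CPM in the control. Its log2 fold change of TGF-β2 over IL-1β and IL-6 was 1.31 (SE 0.34). *Rrm1*, a subunit of the enzyme that makes deoxynucleotides, had 229, 214, 168 and 142 CPM with TGF-β2 and 49.4, 105, 61.7 and 70.5 CPM with IL-1β and IL-6 (log2 fold change 1.40, SE 0.34), and *Umps* of pyrimidine synthesis 58.9, 80.4, 37.5 and 39.2 CPM and 9.30, 12.8, 17.1 and 16.5 CPM (log2 fold change 1.96, SE 0.57). All 4 TGF-β2 libraries were above all 4 others for these 3 genes. *Sst*, the neuropeptide somatostatin, had 81.4, 26.7, 95.2 and 88.7 CPM with TGF-β2 and 25.9, 15.2, 7.38 and 9.24 CPM with IL-1β and IL-6 (log2 fold change 2.34, SE 0.63). *Cav1*, the coat protein of caveolae, had 28.6, 83.5, 81.9 and 22.0 CPM with TGF-β2 and 0, 1.62, 0 and 2.92 CPM with IL-1β and IL-6, from 1314 and 14 counts (log2 fold change 5.71, SE 1.47). In the opposite direction, the transcription factor *Maf* had 0.626, 3.32, 0 and 2.55 CPM with TGF-β2 and 14.4, 15.4, 51.4 and 12.2 CPM with IL-1β and IL-6 (log2 fold change -3.80, SE 1.42), and *Ccdc39*, a protein of motile cilia, 5.43, 3.32, 2.16 and 3.94 CPM and 20.6, 19.6, 28.4 and 19 CPM (log2 fold change -2.54, SE 1.03).

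Among the ligands and receptors of the applied factors some had no count, while others, such as *Tgfbr1* and *Il6st*, were counted in all 8 libraries. Of the 6 IL-1 ligands and receptors, *Il1b*, *Il1rn* (the IL-1 receptor antagonist) and *Il1r1* had no count in any of the 8 libraries. The partner receptor *Il1rap* was at 7.73, 10.2, 3.97 and 0 CPM with TGF-β2 and 21.7, 0, 0 and 0 CPM with IL-1β and IL-6, and the decoy receptor *Il1r2* at 2.30, 5.27, 0 and 6.26 CPM and 0, 0, 4.23 and 0 CPM. *Il1a* was counted in 1 library of each group, at 1.08 CPM in TGF-β2 replicate C and 2.23 CPM in IL-1β and IL-6 replicate B. The tested members, *Il1r2* and *Il1rap*, had a median log2 fold change of 0.82, and edgeR, DESeq2 and limma-voom called neither, with 0 at an unadjusted p under 0.05 by edgeR.

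In the IL-6 family, the ligands *Il6*, *Lif*, *Osm* and *Il11* were at 0 in all 8 libraries. The specific IL-6 receptor *Il6ra* had 2 counts in all, in TGF-β2 replicate A. The shared signal transducer *Il6st* was detected in every library, at 18.4, 15.5, 34.3 and 14.6 CPM with TGF-β2 and 36.8, 7.29, 2.61 and 5.35 CPM with IL-1β and IL-6. *Lifr*, which pairs with it for leukaemia inhibitory factor, was at 12.3, 7.62, 28.1 and 0.232 CPM and 10.6, 20.9, 0.846 and 0 CPM, and *Cntfr*, the receptor of ciliary neurotrophic factor, at 15.2, 2.05, 3.97 and 6.49 CPM and 0.221, 5.47, 0.846 and 0 CPM. The groups overlapped for these 3 genes. *Cntf* itself was at 0, 0.195, 0 and 45.2 CPM and 0, 9.52, 1.08 and 4.38 CPM, and the related ligand *Clcf1* was counted in IL-1β and IL-6 replicate C alone, at 4.84 CPM. The IL-11 receptor *Il11ra1* was at 5.43, 14.5, 0 and 0 CPM with TGF-β2 and at 0 with IL-1β and IL-6, and *Osmr* had 10 counts against 1. The 3 tested members, *Cntfr*, *Il6st* and *Lifr*, had a median of 0.67 on the log2 scale, none with an unadjusted p under 0.05.

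Of the TGF-β ligands, *Tgfb2* was at 4.39, 10.8, 0 and 39.2 CPM with TGF-β2 and 0, 5.06, 32.4 and 47.7 CPM with IL-1β and IL-6, *Tgfb3* at 8.14, 17.9, 0.361 and 3.71 CPM and 0, 3.85, 0 and 0 CPM, and *Tgfb1* had 2 counts in TGF-β2 replicate C. The kinase receptor *Tgfbr1* was the most abundant member per kilobase and even across the libraries, at 79.3, 73.4, 127 and 103 CPM and 81.1, 81.4, 119 and 112 CPM. The type II receptor *Tgfbr2*, which binds the ligand, and the co-receptor *Eng* were at 0 in all 8 libraries. The co-receptor *Tgfbr3*, which presents TGF-β2 to the type II receptor, was at 0, 0.879, 1.44 and 0 CPM and 0, 11.7, 0 and 0 CPM, and the endothelial receptor *Acvrl1* had 7 counts, all in IL-1β and IL-6 replicate C. Latent TGF-β is held by binding proteins and freed by integrins, of which *Ltbp1* was at 3.13, 0.0976, 0 and 2.78 CPM and 7.75, 9.72, 1.38 and 3.89 CPM, *Ltbp2* at 0.209, 6.05, 5.77 and 0 CPM and 0, 0, 0 and 0 CPM, *Ltbp3* at 4.39, 11.2, 3.25 and 2.32 CPM and 0.221, 4.66, 0.692 and 1.46 CPM, and *Ltbp4* at 0, 1.27, 0 and 0 CPM and 0, 0, 0 and 0 CPM. The integrin genes *Itgav* (27.6, 12.7, 41.5 and 25.7 CPM with TGF-β2, 12.6, 54.5, 33.4 and 7.78 CPM with IL-1β and IL-6) and *Itgb8* (20.0, 2.34, 80.8 and 24.1 CPM and 0, 0.405, 50.7 and 29.2 CPM) were expressed in both groups. The 7 tested members had a median of -0.01, 3 positive and 4 negative, and none had an unadjusted p under 0.05.

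Each list that follows is described by its counts and its median log2 fold change, beside the median of 0.04 and the 5444 positive of 10384 over all genes tested. edgeR and limma-voom called no member of any of the 32 lists, and DESeq2 called *Saa3* (acute phase), *Rrm1* (DNA replication) and *Tfrc* (MYC). No tested member of a list had a group without counts, so that no median below rests on a bound. The lists were chosen with earlier results known and share members, and no list was tested as a whole.

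Counted over both groups together, signal carriers were detected nearly in full. Of 14 genes between the IL-1 receptor and NF-κB, 11 were tested, 3 positive and 8 negative, with a median of -0.78 and 1 at an unadjusted p under 0.05. That gene was *Tab3*, an adaptor of the kinase Tak1, at 3.13, 5.27, 1.44 and 0 CPM with TGF-β2 and 18.2, 13.2, 24.4 and 38.4 CPM with IL-1β and IL-6, a log2 fold change of -3.23 (SE 1.38) with groups that did not overlap. The median leaves out the untested *Myd88*, *Irak2* and *Irak3*, which were all higher with TGF-β2 in pooled counts. *Myd88* and *Irak3* had no count with IL-1β and IL-6 and were at least 2.59-fold and 9.97-fold higher, and without TGF-β2 replicate A both groups were at or under the floor. *Irak2* had a ratio of 79.8, which was 11.3 (95% interval 1.52 to 502) without TGF-β2 replicate A. The kinase genes *Ikbkb*, which frees NF-κB, and *Map3k7*, which encodes Tak1, had log2 fold changes of -1.34 (SE 0.64) and 1.07 (SE 0.74).

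In the JAK-STAT list 9 of 14 were tested, 6 positive and 3 negative, with a median of 0.24 and none at an unadjusted p under 0.05. *Stat3*, which carries the IL-6 signal, was at 91.0, 69.6, 49.4 and 35.9 CPM with TGF-β2 and 5.32, 90.7, 89.1 and 15.1 CPM with IL-1β and IL-6, and *Socs1*, an inhibitor of JAK kinases, was at 0. Among the members of smallest p were the phosphatase *Ptpn11* (log2 fold change 0.65, SE 0.61) and the kinase *Jak1* (means of 45.1 ± 23.2 and 55.7 ± 21.7 CPM, SD, n = 4).

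In the SMAD list 12 of 15 were tested, 8 positive and 4 negative, with a median of 0.22 and none at an unadjusted p under 0.05. *Skil*, a SMAD corepressor that TGF-β is known to induce, was the most abundant per kilobase and did not separate the groups, at 851, 1829, 2360.3 and 2999.6 CPM with TGF-β2 and 2484, 879.6, 2739 and 1964 CPM with IL-1β and IL-6. *Pmepa1*, another inhibitor that TGF-β induces, was at 10.6, 30, 1.80 and 48.7 CPM and 2.21, 2.63, 8.92 and 8.27 CPM (log2 fold change 2.05, SE 1.21). *Zfyve9*, an anchor of SMAD proteins, had a log2 fold change of -1.05 (SE 0.67), and *Smad5* of the BMP branch one of 2.11 (SE 1.36).

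Several acute-phase, chemokine and complement genes that interleukins induce, chosen after their values were seen, had no count or few with TGF-β2. Except for *Ccl20*, their counts with IL-1β and IL-6 came from some libraries of the group and not from others. *Saa3*, an acute-phase serum amyloid A protein whose family members are close copies, had no count with TGF-β2 or in the control and 25.5, 96.4, 15.8 and 0 CPM with IL-1β and IL-6, at least 239-fold lower with TGF-β2 in pooled counts. This bound was at least 121-fold without IL-1β and IL-6 replicate B, at least 129-fold without TGF-β2 replicate B and at least 379-fold without IL-1β and IL-6 replicate C. With IL-1α and TNF-α, used as a positive control for activation, it reached 108, 200.2, 55.3 and 16.9 CPM. The chemokine gene *Ccl20* was at 4.39, 0, 0 and 0 CPM with TGF-β2 and 22.4, 22.9, 0.154 and 13.6 CPM with IL-1β and IL-6, and at 0 in the control. *Ccl5* had no count with TGF-β2 or in the control and 33.4, 9.11, 0 and 0 CPM with IL-1β and IL-6, *Cxcl5* 0, 13.6, 63.7 and 0 CPM and *Cxcl1* 16.4, 0, 16.1 and 0 CPM. The complement gene *C3*, at 0 with TGF-β2 and in the control, was at 12.2, 9.32, 14.2 and 0 CPM with IL-1β and IL-6. Not all chemokine genes in the list of NF-κB targets were on this side. *Ccl2* and *Cx3cl1* had no count with IL-1β and IL-6 and were counted with TGF-β2 in replicate A alone, at 5.43 and 3.97 CPM, and both were counted in control replicates A and C. *Ccl7* was at 0, 0, 11.5 and 0 CPM with TGF-β2 and 0, 28.8, 0 and 4.38 CPM with IL-1β and IL-6, *Cxcl2* had 1 count in the 8 libraries and *Cxcl10* none. *Nfkbie*, an inhibitor of NF-κB, was at 6.26, 0, 0 and 0 CPM and 0, 0, 0.0769 and 0 CPM. *Lcn2* and *Serpina3n*, markers of reactive astrocytes, were counted among the 8 libraries in IL-1β and IL-6 replicate B alone, at 15 and 15.2 CPM. Each of the genes *Saa3*, *Ccl5*, *Cxcl5*, *Cxcl1* and *C3* was at 0 in at least 1 IL-1β and IL-6 library, so that none separated the groups in full.

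Of 33 NF-κB targets 25 had counts and 6 passed the filter, 2 positive and 4 negative, with a median of -0.38 and none at an unadjusted p under 0.05. Summed over the list, the level was 236, 176, 165 and 221 CPM with TGF-β2, 239.6, 325, 409 and 211 CPM with IL-1β and IL-6 and 292, 238, 279 and 154 CPM in the control. *Ccl20* (log2 fold change -3.71, SE 2.14), *Nfkbib* (log2 fold change -2.84, SE 1.86), which holds NF-κB back and whose groups did not overlap, and *Sod2* (means of 145 ± 20.2 and 171 ± 68.4 CPM, SD, n = 4), of antioxidant defence, were the members of smallest p. *Nfkbia*, the best known feedback inhibitor, was at 20.3, 6.15, 0 and 47.0 CPM and 16.2, 40.3, 19.8 and 30.6 CPM.

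The whole list of STAT3 and acute-phase targets overlapped between the groups, with sums of 171, 285, 191 and 364 CPM with TGF-β2, 232, 401, 322 and 170.3 CPM with IL-1β and IL-6 and 201, 417, 215 and 305 CPM in the control. Of its 22 members 5 were tested, 4 positive and 1 negative, with a median of 0.24. The negative one was *Cp*, ceruloplasmin, the copper-carrying ferroxidase, at 2.51, 3.71, 0 and 0 CPM with TGF-β2 and 3.77, 47.4, 112 and 0 CPM with IL-1β and IL-6 (log2 fold change -4.63, SE 1.89), the only one of them at an unadjusted p under 0.05. Its level was at 0 in IL-1β and IL-6 replicate D, in TGF-β2 replicates C and D and in control replicates A and D. *Timp1*, an inhibitor of matrix proteases, had a log2 fold change of 2.16 (SE 1.81), and *Serping1*, the inhibitor of complement C1, one of 1.36 (SE 1.24).

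**Figure D2:**
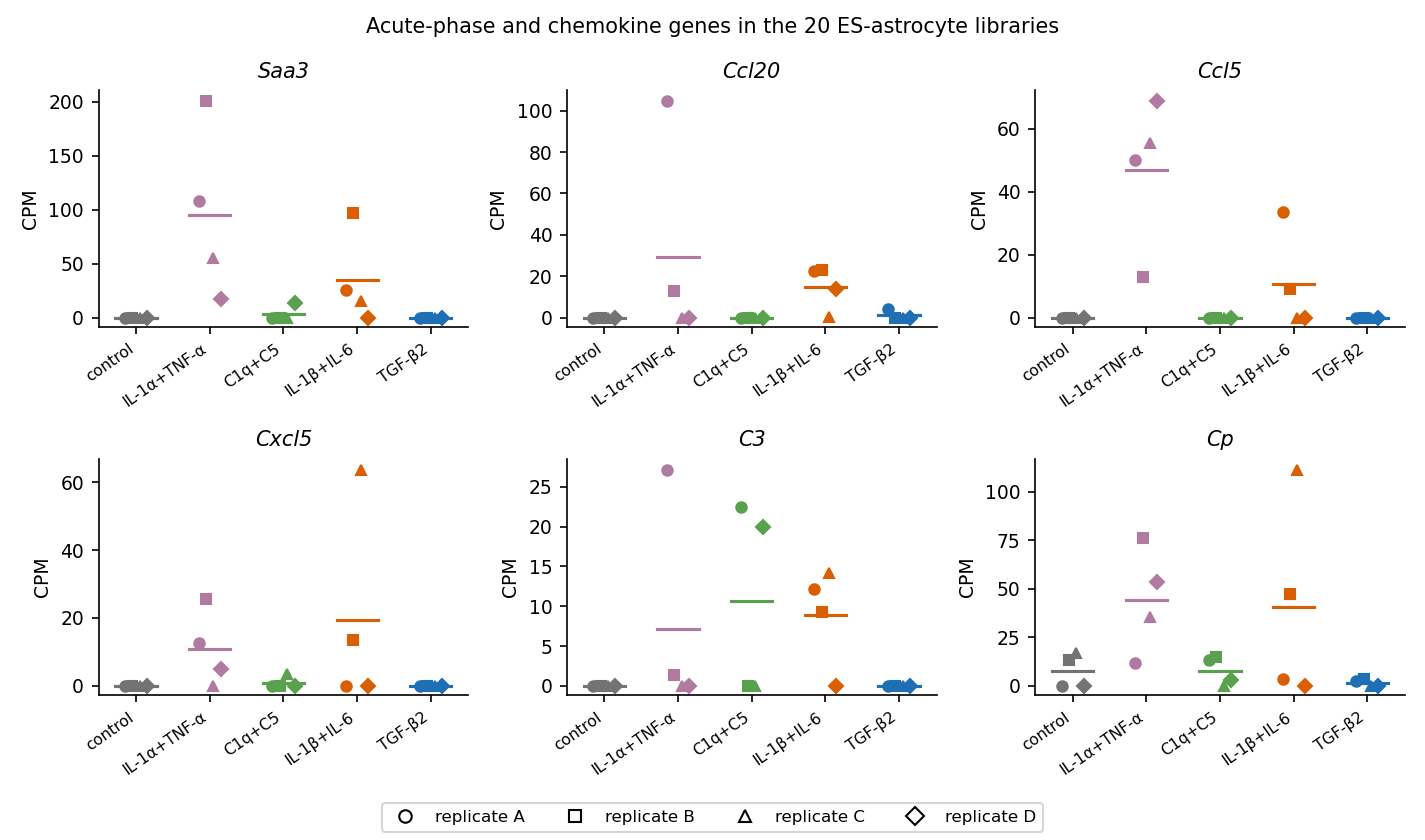
CPM of acute-phase, chemokine and complement genes in each of the 20 ES-astrocyte libraries; symbols mark the replicate, colours the treatment and short lines the mean of 4 libraries. With TGF-β2 the highest value of the 6 genes is 4.39 CPM, for Ccl20, and with IL-1β and IL-6 each gene except Ccl20 is at 0 in at least 1 library.

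Of 35 listed targets of TGF-β, 33 had counts and 23 were tested, of which 20 had a positive and 3 a negative log2 fold change. Their median was 0.80, 4 had an unadjusted p under 0.05, and 2 did not overlap, both with higher values under TGF-β2 (1.66% over all genes). The list's summed level was 3384, 4903, 4481 and 5139 CPM with TGF-β2, 4093, 2796, 4372 and 3767 CPM with IL-1β and IL-6 and 3276, 5363, 4220.1 and 4412 CPM in the control, so that the groups overlapped and the control libraries spanned the TGF-β2 range.

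*Tpm1*, a tropomyosin of actin filaments (chromosome 9, 67022590 to 67049406), was at 284, 262, 269 and 347 CPM with TGF-β2 and 131, 174, 211 and 190.2 CPM with IL-1β and IL-6 (log2 fold change 0.73, SE 0.27). *Tagln*, an actin-binding protein of contractile cells and likewise not overlapping, was at 74.3, 172, 59.9 and 86.0 CPM and 5.09, 50.6, 28.2 and 47.7 CPM (log2 fold change 1.58, SE 0.65). *Cdkn1a*, the cell cycle inhibitor p21, was at 179.6, 109, 109 and 104 CPM and 32.6, 105, 47.0 and 34.5 CPM (log2 fold change 1.20, SE 0.45), where IL-1β and IL-6 replicate B lay within the range of TGF-β2. Fibronectin, *Fn1*, was at 74.3, 162, 166 and 92.0 CPM and 40.8, 82.0, 50.3 and 94.4 CPM (log2 fold change 0.89, SE 0.42), and *Sparc*, a matrix protein that binds collagen, had a log2 fold change of 1.15 (SE 0.53). *Tagln*, *Fn1* and *Sparc* were chosen after their values were seen.

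Of the 50 genes of the extracellular matrix 24 were tested, 15 positive and 9 negative, with a median of 0.91 and 3 at an unadjusted p under 0.05. These were *Dcn*, *Col1a1* and *Col12a1*. Untested members without a count in a group went both ways. *Nid2* had no count with TGF-β2 and was at least 97.4-fold lower there, or at least 23.1-fold without IL-1β and IL-6 replicate C. *Col4a1*, *Col5a2*, *Col6a1*, *Col6a3*, *Lamb1* and *Bgn* had no count with IL-1β and IL-6. *Dcn*, decorin, a proteoglycan that binds collagen and TGF-β (chromosome 10, 97479609 to 97518143), was at 452, 446, 379.9 and 269 CPM with TGF-β2 and 138, 35.4, 133 and 201 CPM with IL-1β and IL-6, apart in all libraries (log2 fold change 1.62, SE 0.45). *Col12a1*, a collagen of fibril surfaces, was also apart, at 9.19, 15.3, 52.3 and 7.18 CPM and 4.21, 2.03, 1.08 and 0.486 CPM (log2 fold change 3.41, SE 1.31), and its log2 fold change was 2.39 without TGF-β2 replicate C and 4.09 without IL-1β and IL-6 replicate A. *Col1a1*, the main fibrillar collagen, was at 1.25, 12.2, 27.4 and 79.7 CPM and 0, 1.01, 3.84 and 0 CPM (log2 fold change 4.54, SE 1.72), with TGF-β2 replicate A inside the other range, and its log2 fold change was 3.42 without TGF-β2 replicate D and 6.22 without IL-1β and IL-6 replicate C. The list's sum was 2631, 2346, 2570.2 and 2475 CPM with TGF-β2, 2073, 1922, 2367 and 1435 CPM with IL-1β and IL-6 and 1099, 3159, 1863 and 1876 CPM in the control.

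These matrix genes are also genes of fibroblasts and other mesenchymal cells. That list had 6 of 8 members detected, with *Lum* and *Pdgfrb* at 0 and smooth muscle actin, *Acta2*, the most abundant per kilobase (293, 479.6, 488 and 149 CPM with TGF-β2, 39.0, 171, 268 and 373 CPM with IL-1β and IL-6, log2 fold change 0.73, SE 0.59). Its summed level was 749, 942, 896 and 551 CPM with TGF-β2, 177, 208, 406 and 574 CPM with IL-1β and IL-6 and 1135, 1175, 610.0 and 351 CPM in the control. The 3 tested members, *Dcn*, *Col1a1* and *Acta2*, were all positive, with a median of 1.62 and 2 at an unadjusted p under 0.05. The part of such cells in the values of matrix genes was not tested.

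**Figure D3:**
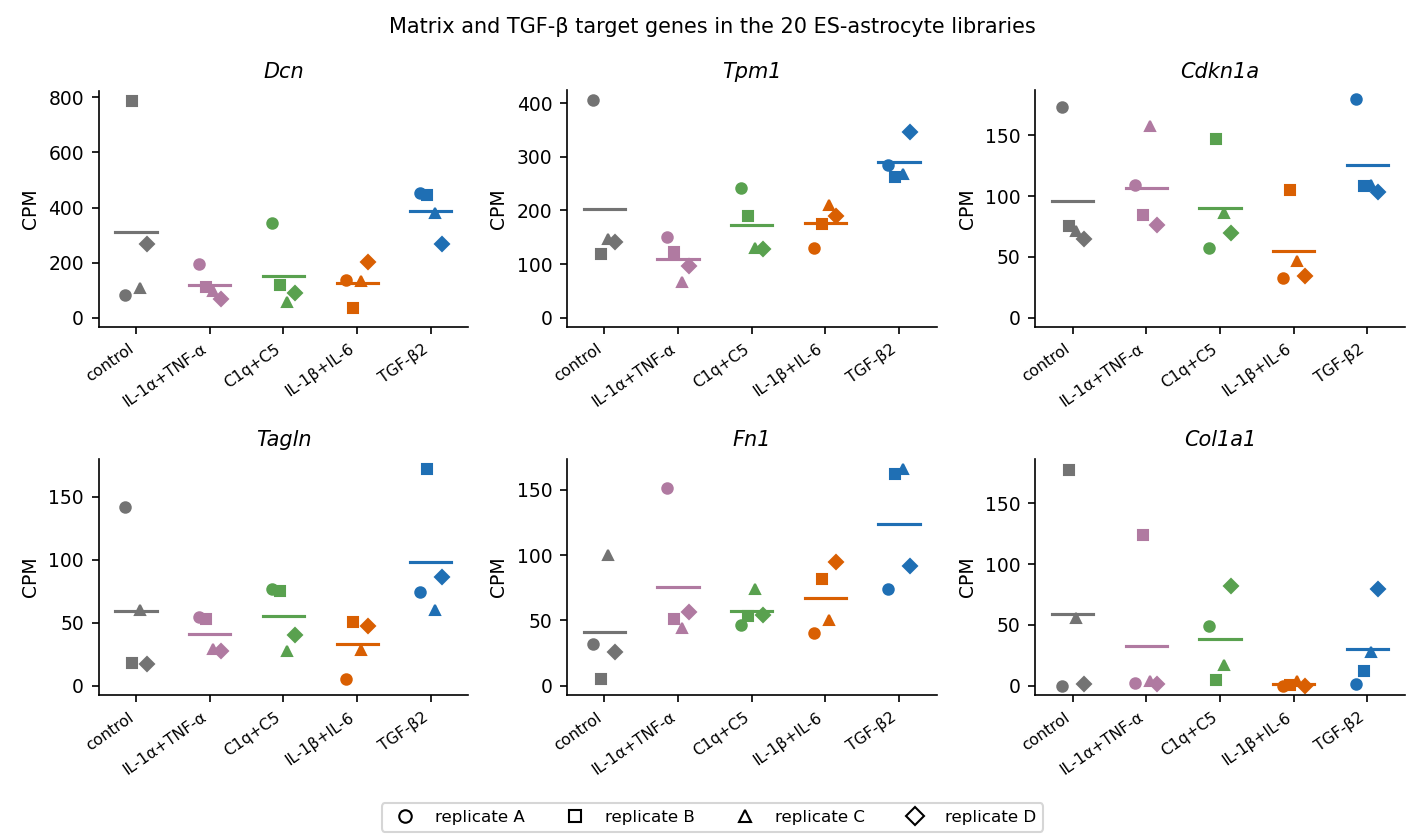
CPM of matrix and TGF-β target genes in each of the 20 ES-astrocyte libraries; symbols mark the replicate, colours the treatment and short lines the mean of 4 libraries. The 4 TGF-β2 libraries are above the 4 IL-1β and IL-6 libraries for Dcn, Tpm1 and Tagln, and for Dcn and Tpm1 control libraries reach above the highest TGF-β2 library.

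Genes of reactive astrocytes did not separate the groups. Of the shared reactive genes 5 of 13 were tested (2 positive, median -0.14, 1 at an unadjusted p under 0.05), led per kilobase by *Vim*, vimentin, and the members of smallest p were *Cp*, *Cd44* (86.9, 109.5, 149 and 68.8 CPM with TGF-β2, 124, 119, 177 and 226 CPM with IL-1β and IL-6, log2 fold change -0.63, SE 0.36) and *Timp1*. Of the genes of the state called A1, which inflammatory factors of microglia are known to induce, 4 of 13 were tested. Of these, 3 were positive (median 1.39, 0 at an unadjusted p under 0.05). The matrix gene *Fbln5* had a log2 fold change of 2.82 (SE 1.87), *Serping1* was named above, and *Fkbp5*, a target of glucocorticoids, was at 17.1, 23.9, 18.8 and 0 CPM and 0, 22.1, 0 and 0 CPM. *Gbp2*, *Iigp1*, *Psmb8* and *Srgn* of that state were at 0. Other members had a higher mean with IL-1β and IL-6, for *H2-T23*, *Ggta1* and *Amigo2* almost wholly through replicate C. *C3*, given above, and *H2-T23* had no count with TGF-β2, and *H2-T23* was at 0, 0, 9.23 and 0.973 CPM with IL-1β and IL-6. *Ggta1* was at 1.67, 0, 0 and 0 CPM and 0, 0, 7.38 and 0 CPM, *Amigo2* at 6.89, 0, 3.97 and 0 CPM and 0, 0.810, 21.0 and 0 CPM, and *H2-D1*, the negative one, at 9.61, 0.0976, 6.85 and 34.3 CPM and 37.2, 17.4, 0.154 and 16.1 CPM. *Ugt1a1* had 1 count. Of the genes called A2, 4 of 13 were tested (3 positive, median 0.22, 0 at an unadjusted p under 0.05), with *Tm4sf1* (means of 23.6 ± 11.5 and 12.7 ± 13.8 CPM, SD, n = 4), *B3gnt5* (87.1 ± 56.8 and 104 ± 60.0 CPM) and *Stat3* those of smallest p.

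Interferon and antigen presentation genes were few, 16 of 27 detected and 8 tested, with a median of 0.01 and none at an unadjusted p under 0.05. *Ifit1*, *Irf7*, *Mx1*, *Rsad2* and *Psmb9* were among the 11 members at 0. The antiviral membrane gene *Ifitm3* was at 78.1, 175, 91.3 and 51.0 CPM with TGF-β2 and 132, 205, 129.9 and 272 CPM with IL-1β and IL-6 (log2 fold change -0.90, SE 0.43), and *B2m*, the light chain of MHC class I, at 61.2, 107, 62.4 and 93.8 CPM and 175, 86.9, 98.6 and 146 CPM (log2 fold change -0.64, SE 0.37). The heavy chain *H2-K1*, whose copies at that locus can share reads, was at 5.85, 5.47, 32.5 and 14.1 CPM and 0, 0, 5.84 and 0 CPM (log2 fold change 3.25, SE 1.93), thus with the opposite sign to *B2m*.

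The AP-1 and JNK list, which IL-1 is known to drive, had all 16 members detected and 13 tested, 6 positive and 7 negative, with a median of -0.05 and none at an unadjusted p under 0.05. Its sums were 644, 352, 379 and 486 CPM with TGF-β2 and 396, 468, 475 and 343 CPM with IL-1β and IL-6. The members of smallest p were the immediate early genes *Egr1* (24.8 ± 13.1 and 12 ± 9.12 CPM, SD, n = 4) and *Ier2* (28.6 ± 37.8 and 15.5 ± 4.40 CPM) and the JNK-activating kinase *Map2k4* (61.5 ± 22.7 and 37.2 ± 43.7 CPM).

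Genes of neural progenitors were the list with the lowest median. Of 8 members 6 were tested and all were negative, with a median of -0.98, 1 at an unadjusted p under 0.05 and 2 whose groups did not overlap (0.915% over all genes). The summed level was 190.0, 214, 203 and 218 CPM with TGF-β2, 323, 318, 683 and 309 CPM with IL-1β and IL-6 and 249, 467, 333 and 252 CPM in the control. *Nkx6-1*, which marks the ventral neural tube, was the most abundant per kilobase, at 92.3, 132, 117 and 135 CPM with TGF-β2 and 154, 160.0, 474 and 196 CPM with IL-1β and IL-6 (log2 fold change -1.04, SE 0.39), and *Sox1* of early neural cells was at 11.5, 13.6, 18.4 and 22.0 CPM and 34.3, 25.7, 35.6 and 32.1 CPM (log2 fold change -0.96, SE 0.65).

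Astrocyte identity genes had 15 of 23 tested, 4 positive and 11 negative, with a median of -0.28 and 1 at an unadjusted p under 0.05. This was *Fabp7*, at 1055, 1149.8, 939.7 and 840.1 CPM with TGF-β2, 1977, 1016, 1913 and 1580.0 CPM with IL-1β and IL-6 (log2 fold change -0.70, SE 0.28) and 523, 2271, 1849 and 2278 CPM in the control. IL-1β and IL-6 replicate B lay within the TGF-β2 range. Glutamine synthetase, *Glul*, was at 28.8, 22.8, 18.4 and 36.6 CPM and 46.5, 39.5, 111 and 36.0 CPM (log2 fold change -1.12, SE 0.56). Neuron genes had all 12 tested, 5 positive and 7 negative, with a median of -0.12 and 1 at an unadjusted p under 0.05, *Snap25*. The neurofilament gene *Nefl* had a log2 fold change of -0.57 (SE 0.33) and the RNA-binding *Elavl4* one of -0.46 (SE 0.30). Of the motor neuron genes 5 were tested, 1 positive, with a median of -0.05 and none at an unadjusted p under 0.05. *Prph* (8.06 ± 7.47 and 1.42 ± 2.84 CPM, SD, n = 4), *Spock3* (1.57 ± 1.84 and 4.21 ± 4.87 CPM) and *Isl1* (18.2 ± 22.9 and 30.3 ± 27.7 CPM) had the smallest p.

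Cell division genes were abundant in both groups. Of 30 genes of DNA replication 28 were tested, 16 positive and 12 negative, with a median of 0.12 and 1 at an unadjusted p under 0.05, *Rrm1*. The list summed to 2715, 2819.5, 2342 and 1762 CPM with TGF-β2 and 2009, 3098, 2057 and 2029 CPM with IL-1β and IL-6. *Rpa2*, which coats single-stranded DNA, had a log2 fold change of 1.25 (SE 0.73) and *Mcm4* of the replicative helicase one of -0.53 (SE 0.38). All 25 genes of mitosis were tested, 11 positive and 14 negative, with a median of -0.10 and none at an unadjusted p under 0.05. Their sums were 2751, 3624, 2858 and 1869 CPM and 2465, 3519, 3669 and 2733 CPM. *Top2a*, which untangles DNA, was at 239.5, 459, 320.0 and 270.1 CPM with TGF-β2 and 551, 398, 460.3 and 525 CPM with IL-1β and IL-6 (log2 fold change -0.58, SE 0.28), *Ccna2*, cyclin A, had a log2 fold change of -0.60 (SE 0.36), and the mitotic kinase *Plk1* was at 23, 35.4, 5.41 and 0 CPM and 1.33, 2.03, 0 and 3.89 CPM.

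Growth, stress and metabolism lists had a median log2 fold change near that of all genes, apart from glycolysis. The MYC list had all 31 members tested, 19 positive and 12 negative, with a median of 0.10 and 1 at an unadjusted p under 0.05, *Tfrc*. *Ldha*, lactate dehydrogenase, had a log2 fold change of 1.26 (SE 0.70) and *Mxi1*, a MYC antagonist whose groups did not overlap, one of -1.85 (SE 1.07). Of the genes of the unfolded protein response 24 of 28 were tested, 15 positive and 9 negative, with a median of 0.20 and 2 at an unadjusted p under 0.05. These were *Asns*, asparagine synthetase, at 151, 179, 132 and 200.2 CPM with TGF-β2 and 123, 73.9, 127 and 61.3 CPM with IL-1β and IL-6 (log2 fold change 0.78, SE 0.34), and *Mthfd2* of mitochondrial folate use, at 42.8, 30.3, 87.3 and 63.2 CPM and 4.65, 32.2, 0.846 and 15.6 CPM (log2 fold change 2.07, SE 0.94). *Sel1l*, of protein disposal at the endoplasmic reticulum, had a log2 fold change of -1.12 (SE 0.58).

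The genes named in the study's own account of IL-1β and IL-6 were picked on these libraries, so that their direction here is not independent. Of 14 such genes 12 were tested, 10 positive, with a median of 0.50 and 2 at an unadjusted p under 0.05, *Cdkn1a* and *Mthfd2*. Glycolysis and hypoxia had 17 of 26 members tested, 13 positive and 4 negative, with a median of 0.44 and none at an unadjusted p under 0.05. The list summed to 1237, 1024, 921 and 683 CPM with TGF-β2 and 568, 1003, 629 and 636 CPM with IL-1β and IL-6. *Gapdh* had a log2 fold change of 1.01 (SE 0.55) and *Eno1*, enolase, one of 1.05 (SE 0.62).

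Cholesterol synthesis had 19 of 20 members tested, 10 positive and 9 negative, with a median of 0.02 and none at an unadjusted p under 0.05. Its summed level was nonetheless lower on average with TGF-β2, with means of 2382 and 3756 CPM. The sums were 1669, 2237, 2233 and 3389 CPM with TGF-β2 and 5359, 2375, 3745 and 3547 CPM with IL-1β and IL-6, so that the groups overlapped. The sterol sensor *Insig1* had a log2 fold change of -0.87 (SE 0.46), while *Sqle*, squalene epoxidase, had one of 0.87 (SE 0.44). Heat shock and handling genes had 9 of 12 tested, 6 positive, with a median of 0.20 and none at an unadjusted p under 0.05. *Hspa8* (418 ± 147 and 299 ± 111 CPM, SD, n = 4), *Egr1* and *Dnajb1* (16.7 ± 13.7 and 6.77 ± 4.10 CPM) had the smallest p.

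**Figure D4:**
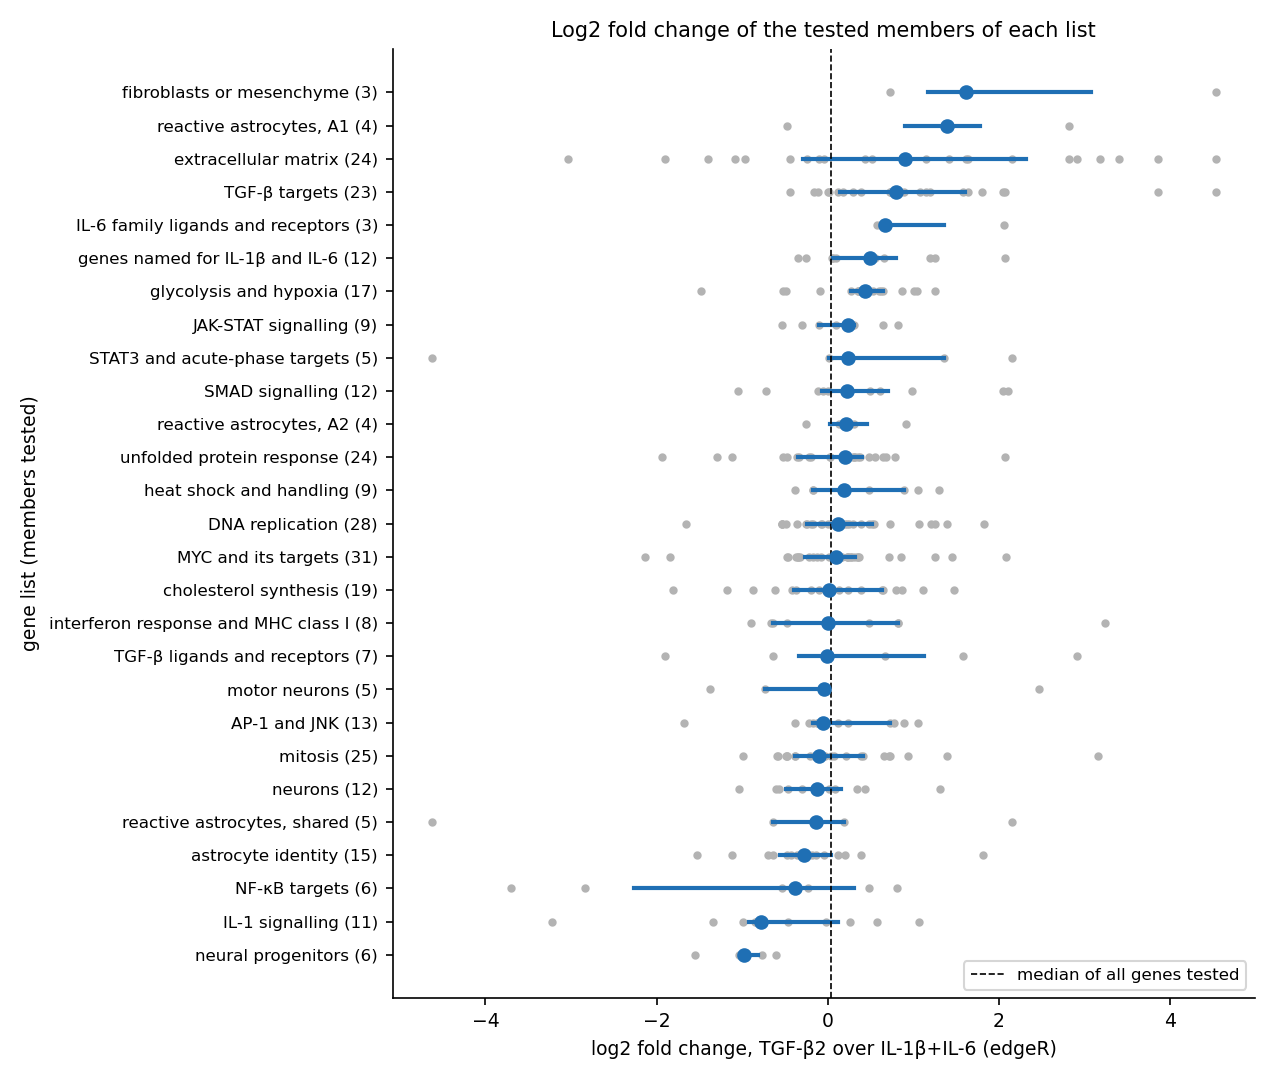
Log2 fold change of TGF-β2 over IL-1β and IL-6 (edgeR) for the tested members of each list with at least 3 of them; grey points are genes, the large point the list's median, the bar its quartiles and the dashed line the median of all genes tested, 0.04. The lists of neural progenitors (-0.98) and IL-1 signalling (-0.78) have the lowest medians, and those of fibroblasts or mesenchyme (1.62) and A1 astrocytes (1.39) the highest.

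The control libraries place each stimulus, with the limit that they stand at another plate index, so that stimulus and plate cannot be told apart in these comparisons. Both comparisons use the same 4 control libraries. edgeR called 0 of 10794 genes for TGF-β2 against control (0%), with 136 (1.26%) at an unadjusted p under 0.05, and 0 of 10240 for IL-1β and IL-6 against control (0%), with 119 (1.16%). DESeq2 called 58 (0.283%) and 56 (0.291%), and limma-voom 0 in each. Of the genes lower with TGF-β2, *Gata3* had a log2 fold change of -0.66 (SE 0.55) for TGF-β2 over control and 0.98 (SE 0.50) for IL-1β and IL-6 over control, and *Ptn* -0.96 (SE 0.61) and 1.24 (SE 0.72). *Hoxb5* had 1.57 (SE 0.34) and 0.24 (SE 0.41), its 4 TGF-β2 libraries all above the control libraries. *Dcn* had 0.32 (SE 0.63) and -1.29 (SE 0.73), with control values of 83.0, 788, 109 and 269 CPM. *Tfrc* had 0.71 (SE 0.67) and -1.38 (SE 0.70). None of these 5 passed edgeR's threshold in either comparison.

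In the ES-motor neurons sorted from the same co-cultures the same contrast was tested in 8 libraries. edgeR called 0 of 7886 genes (0%), with 159 (2.02%) at an unadjusted p under 0.05, limma-voom 0, and DESeq2 1 (0.005%), while edgeR without the filter on low counts called 1. The gene called by DESeq2, *Nfia*, a transcription factor that starts gliogenesis and was chosen after its values were seen, was at 532, 147, 228 and 611 CPM in ES-motor neurons with TGF-β2 and 21.4, 70.7, 25.7 and 89.5 CPM with IL-1β and IL-6, scaled over the 20 ES-motor neuron libraries. In ES-astrocytes it was at 86.7, 80.8, 115 and 119 CPM and 157, 57.3, 119.6 and 154 CPM. *Hoxb5* was at 141, 181, 186 and 216 CPM and 92.8, 23.6, 31.3 and 34.4 CPM in ES-motor neurons, and *Hoxa5*, chosen in the same way, at 274, 107, 115 and 244 CPM and 36.5, 47.1, 30.4 and 34.4 CPM, with all 4 TGF-β2 libraries above the others for both. The ES-astrocytes come from the same co-cultures, so that these values are not independent of theirs. The share of all genes separated in this way was not taken in ES-motor neurons. In 3 of these 8 libraries, TGF-β2 replicate A and IL-1β and IL-6 replicates B and D, the totals were 283205, 80315 and 146775 counts, so that a value there rests on few counts, 2 for *Hoxb5* in IL-1β and IL-6 replicate B.

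The difference of the contrast between the cell types was tested in a fit of all 16 libraries. edgeR called 2 of 12041 genes (0.0166%), with 621 (5.16%) at an unadjusted p under 0.05, and DESeq2 17 (0.0723%). The 2 genes were *Sorl1* and *Top2a*. For *Sorl1* the ES-astrocytes had 1 count with IL-1β and IL-6, too few for a fitted size, so none is given. Its level with TGF-β2 was above IL-1β and IL-6 in 4 of 4 ES-astrocyte libraries, and the ES-motor neurons overlapped at 29.1, 74.9, 35.5 and 57.5 CPM with TGF-β2 and 45.4, 23.6, 60.4 and 61.9 CPM with IL-1β and IL-6. *Top2a* had a difference of -3.42 (SE 0.56) on the log2 scale, and of -2.22 in limma-voom. The ES-motor neurons were at 8.31, 10.6, 17.4 and 11.7 CPM with TGF-β2 and 1.80, 0, 1.86 and 0 CPM with IL-1β and IL-6. The ES-astrocytes of TGF-β2 were below the mean of IL-1β and IL-6 in 4 of 4 libraries. Their groups overlapped all the same, with TGF-β2 replicate B above IL-1β and IL-6 replicate B. The zeros of *Top2a* are in IL-1β and IL-6 replicates B and D, where 3 counts are 35.4 and 20.6 CPM, so these 2 libraries cannot be told apart from TGF-β2, and its value in TGF-β2 replicate A rests on 2 counts. In edgeR's quasi-likelihood test the Benjamini-Hochberg adjusted p was 0.0251 for each. With the replicate letter as a block the count was 0 and the smallest adjusted p 0.133, in a range of 5.61e-08 to 0.496 over the alternatives. The calls also rested on single libraries. Without 1 library at a time the count was 1 without IL-1β and IL-6 replicate A, 4 without replicate B, 2 without TGF-β2 replicate B and 3 without IL-1β and IL-6 replicate B of the ES-motor neurons, and 0 without any of the other 12. It was 0 without the 3 shallow ES-motor neuron libraries, an alternative chosen after seeing the data. Scaling by RLE in place of TMM called the same 2 genes. The median difference of all genes, 0.04, was 0.18 with RLE and -0.25 without IL-1β and IL-6 replicate A of the ES-motor neurons. It was 0.48 with limma-voom and its sample quality weights.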

How the data were processed

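The deposited table holds counts of reads per gene, for which the authors name STAR; its version, the counting tool, the genome build, the annotation and the setting for strand were not given in the sources used here. Its 55487 genes carried Ensembl identifiers, of which GENCODE M21 (GRCm38), used for names and coordinates, named 55227. The 260 others held 0.117% of counts and stayed in library sizes and tests. Totals of the 20 ES-astrocyte libraries ran from 1510823 to 16054290. No molecular identifiers are named, so that intervals and floors cover at most the counting error of reads, and not the spread between libraries. A floor is 3 counts over a group, and an interval on 1 to 3 counts is the 95% Clopper-Pearson interval.

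Counts were filtered with filterByExpr, scaled by TMM and tested with edgeR 4.0.16's quasi-likelihood test, in fits of the groups compared alone, in R 4.3.3. The steps were tested on simulated data as a check of the code, from which no power to find changes in these libraries is drawn. DESeq2 1.42.0, limma-voom with sample quality weights (limma 3.58.1), RLE scaling, no filter, all libraries of a cell type in the fit, no condition on the fold change, a replicate block and leaving out each library were alternatives. The alternative with limma-voom thus changed both the method and the weights of the libraries. Tables and plots were made in Python 3.11.15 (numpy 2.4.6, pandas 2.3.3, matplotlib 3.10.9, scipy 1.17.1).

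Genes were named by rule: called genes first, then, up to 8 in each direction, those of smallest p whose groups did not overlap, the 3 tested members of smallest p in each of 32 lists, and the ligands and receptors in full; some genes that the rule takes are not reported here. The comparison, the lists and the rule were chosen with earlier results of these data known. The sample sheet puts the TGF-β2 and the IL-1β and IL-6 libraries of a replicate letter on the same plate, and the control libraries on another, so that between the stimuli the letter marks a shared batch. Taken as differences from the mean of their group, libraries of one letter correlated over 10384 genes at -0.084 for A, 0.0713 for B, 0.00876 for C and 0.0409 for D.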

Additional observations from a re-analysis of the deposited data

Results flagged for a closer look

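Chance alone sets apart about 1 in 20 groups of 4 libraries by the measure used, in which the gap from the highest or lowest library to its nearest neighbour is compared with the whole range, and 12 of the 106 groups looked at were set apart. Most of them lie near 0. Where the other libraries of a group are all at 0, any count sets a library apart, so that the rate of 1 in 20 does not hold. This was so for *Mir9-3hg*, *Zfp865*, *Sorl1* and the endothelial genes. The single genes were also chosen because their groups did not overlap. Among the summed levels of gene lists with TGF-β2, that of JAK-STAT signalling was 439 CPM in replicate C, against 320.2 to 336 CPM in the others, that of the oligodendrocyte lineage was 7.31 CPM in replicate A, and that of endothelial genes was 0.418 CPM in replicate A. With IL-1β and IL-6, neural progenitor genes summed to 683 CPM in replicate C, against 309 to 323 CPM in the others. In replicate B of that group, DNA replication genes summed to 3098 CPM, against 2009 to 2057 CPM, and genes of glycolysis and hypoxia to 1003 CPM, against 568 to 636 CPM. Oligodendrocyte lineage genes summed to 3.38 CPM in its replicate C and endothelial genes to 16.5 CPM in its replicate D. Of single genes with IL-1β and IL-6, *Yipf1* was at 1.01 CPM in replicate B, *Mir9-3hg* at 0.154 CPM and *Zfp865* at 0.0769 CPM in replicate C, and *Sorl1* at 0.221 CPM in replicate A, each from at most 5 counts.

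Between the cell types, the effect of TGF-β2 over IL-1β and IL-6 differed by the interaction test for *Top2a*, by -3.42 on the log2 scale, and for *Sorl1*, whose 1 count with IL-1β and IL-6 in ES-astrocytes is too few for a fitted size. The count of genes called by this test was 0 with the replicate block and 0 without the 3 shallow ES-motor neuron libraries. In libraries that the main comparison does not use, *Saa3* had a mean of 95.1 CPM with IL-1α and TNF-α, where the control ES-astrocytes had no count.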

How the results depend on the processing

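Between TGF-β2 and IL-1β and IL-6 in ES-astrocytes the count of called genes was 0 in edgeR and in each alternative except DESeq2, which called 62. DESeq2 called 58 genes for TGF-β2 against control, 56 for IL-1β and IL-6 against control, and 1 in ES-motor neurons, each against 0 in edgeR. Without a filter edgeR called 1 gene in ES-motor neurons. For the difference between the cell types, with 2 genes in edgeR, DESeq2 called 17, and limma-voom, no filter, a fit of all 40 libraries and removal of the 3 shallow ES-motor neuron libraries, the last chosen after seeing the data, each gave 0. With the replicate block its count was 0, and the block changed no other call. Leaving out each library gave 0 in the other comparisons and 0 to 4 for the difference. The cause of these moves was not tested. Genes with a log2 fold change between these groups in the text were mostly chosen by small p, by separation or after their values were seen. The alternatives refit the same libraries, so that a kept sign was largely set by that choice. Over 65 genes, which include all of these, none turned its sign under any alternative, and 12 passed DESeq2's threshold. Leaving out 1 library moved the log2 fold change of 22 of them by more than 1.5 times in fold, those of *Cav1*, *Ccl20*, *Col12a1*, *Col1a1*, *Cp*, *Eno1*, *Fbln5*, *H2-K1*, *Maf*, *Map3k7*, *Mthfd2*, *Mxi1*, *Nfkbib*, *Pmepa1*, *Ptn*, *Rpa2*, *Sel1l*, *Smad5*, *Sparc*, *Tab3*, *Timp1* and *Yipf1*. The difference between the cell types for *Top2a* was -3.42 in edgeR and ranged from -3.67 without TGF-β2 replicate B to -2.22 with limma-voom. The median of all genes in ES-astrocytes, 0.04, ranged from -0.02 without TGF-β2 replicate A to 0.20 with limma-voom and its sample quality weights. It was also below 0 without TGF-β2 replicate C. The median difference between the cell types, 0.04, ranged from -0.25 without IL-1β and IL-6 replicate A of the ES-motor neurons to 0.48 with limma-voom. Depth limits what can be said of genes at 0, where 3 counts are up to 1.46 CPM in the ES-astrocyte libraries compared and up to 35.4 CPM in the ES-motor neuron libraries compared.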
